A study of Mus musculus with 6 samples.

Results

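Endothelial and vessel wall genes of skeletal muscle were compared between mice with a muscle-specific knock-out labelled MLL4SET-MKO and wild-type (WT) mice. The 35 genes were a list given by symbol, 29 of endothelial cells and 6 of pericytes and vascular smooth muscle cells. All 35 were found, each in 1 row, among the 25927 rows of the authors' deposited table, and all 35 were among its 13347 tested rows.

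Messenger RNA was sequenced from whole gastrocnemius, a calf muscle, of C57BL/6J mice aged 8 weeks. There were 3 libraries of MLL4SET-MKO mice and 3 of WT mice, described as the control mice for the knock-out, and each group's libraries are labelled as biological replicates. MLL4, encoded by Kmt2d, is a histone H3 lysine 4 methyltransferase, and SET is its catalytic domain. What drives the deletion is not named in the labels. The label places the deletion in muscle, so it does not name vessel cells as deleted cells.

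Capillary endothelial cells form the inner wall of the vessels that run beside muscle fibres. They read growth signals through the VEGF and angiopoietin receptors, hold together through VE-cadherin and claudin junctions, and keep their identity through ETS and SOXF transcription factors. Pericytes and smooth muscle cells sit outside them, recruited by platelet-derived growth factor B and set apart by contractile proteins of their own.

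The table gives 1 FPKM (fragments scaled to transcript length and library size) for each group, so no spread between mice can be shown and no value below carries an SD. Depth is unknown, as FPKM holds no counts. A gene was called when the q-value in the authors' deposited table was under 0.05. Each log2 ratio is MLL4SET-MKO over WT, and its 95% interval was worked back from the authors' own test statistic and p-values. Kmt2d stood at 5.65 FPKM in MLL4SET-MKO and 8.77 FPKM in WT (log2 ratio -0.64, interval -0.89 to -0.38, q = 0.000903 in the authors' deposited table). That call ended when the authors' statistic was treated as a standard normal value (adjusted p = 0.132), and a whole-gene value does not measure the SET exons. The muscle label was met by the row of Des and Speg, the genes of desmin and a striated muscle kinase, at 830.0 FPKM in MLL4SET-MKO and 1049 FPKM in WT. The endothelial markers Cdh5 and Pecam1 stood above 25 FPKM in both groups. In whole muscle, fewer cells of a type and less RNA per cell cannot be told apart.

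Few vessel genes were called between the groups. Of the 35 genes, 1 was called lower in MLL4SET-MKO, Sox7, and none was called higher. That is 2.86% of the genes, where 11.8% of all tested rows were called, 7.41% lower and 4.44% higher. At an unadjusted p under 0.05 in the authors' deposited table there were 2 genes, Sox7 and Sox17, or 5.71%, against 22.2% of all tested rows. In MLL4SET-MKO, 18 of the 35 values lay between 90 and 110% of the WT value.

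The small differences leaned one way. A lower value in MLL4SET-MKO was found for 31 of the 35 genes, where 54.3% of all tested rows were lower. Of the 34 genes with a mean of at least 1 FPKM, which leaves out Cnn1, 30 were lower and 4 higher. Their median of log2((MLL4SET-MKO FPKM + 1)/(WT FPKM + 1)) was -0.10, beside -0.03 over all 11271 rows of that level. On this log2(FPKM + 1) scale the number of higher genes was 6 when both groups were scaled to the same FPKM sum and 9 when values were centred on the median of all those rows, which is the value of Rasip1. Without the added 1 FPKM, the median size of the log2 ratio, whatever its sign, was 0.14 in these genes and 0.17 in all rows. The intervals of 30 of the 35 genes lay within a 1.5-fold change in either direction. The 5 exceptions were Sox7, Sox17, Egfl7, Tagln and Cnn1, and a 1.5-fold increase lay outside the interval of every gene but Cnn1. With the authors' statistic treated as a standard normal value, every interval would be 1.73 times as wide. These counts were not made anew for that treatment, under which fewer intervals could lie within 1.5-fold.

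**Figure D1:**
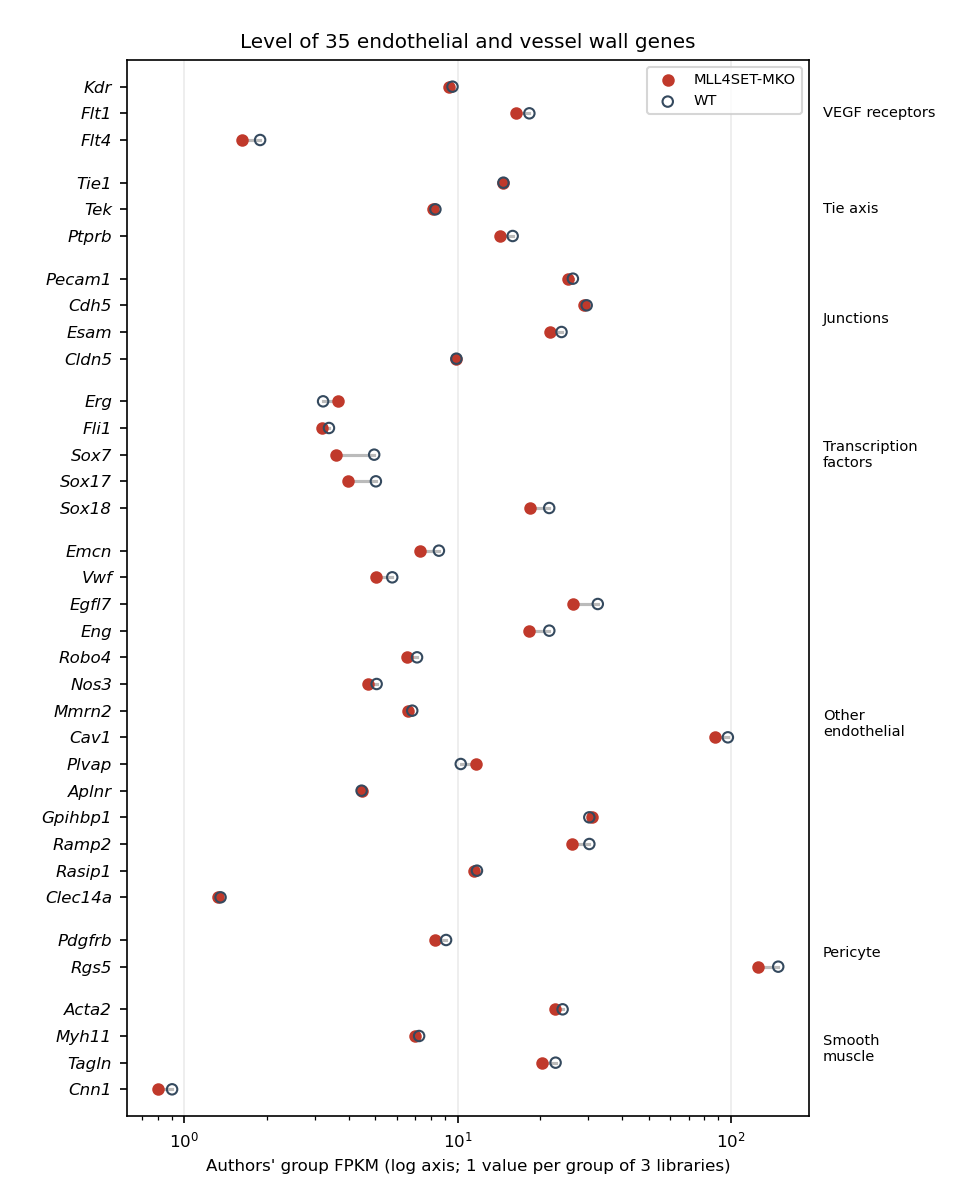
The plot shows the authors' group FPKM of the 35 genes on a log axis, with MLL4SET-MKO as filled and WT as open circles and 1 value per group of 3 libraries. Levels ran from 0.799 to 125 FPKM in MLL4SET-MKO and from 0.901 to 149 FPKM in WT, and Sox7 shows the widest gap.

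Rgs5, a regulator of G protein signalling in pericytes, was highest in both groups, at 125 FPKM in MLL4SET-MKO and 149 FPKM in WT. Cav1, the coat protein of caveolae, followed at 87.5 FPKM in MLL4SET-MKO and 97.4 FPKM in WT. Adipocytes and fibroblasts also express Cav1. The lowest were Cnn1 at 0.799 and 0.901 FPKM, Clec14a at 1.33 and 1.36 FPKM, and Flt4 at 1.62 and 1.89 FPKM, each in MLL4SET-MKO and then in WT.

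The VEGF receptors were all slightly lower and none was called. Kdr, the main signalling receptor for VEGF-A, had 9.28 FPKM in MLL4SET-MKO and 9.57 FPKM in WT (log2 ratio -0.05, interval -0.30 to 0.21). Flt1, which binds VEGF-A and VEGF-B and acts largely as a trap, had 16.3 FPKM in MLL4SET-MKO and 18.3 FPKM in WT (-0.16, interval -0.41 to 0.09). Flt4, the VEGF-C receptor of lymphatic vessels and sprouting capillaries, had 1.62 FPKM in MLL4SET-MKO and 1.89 FPKM in WT (-0.22, interval -0.55 to 0.10). The q-values of the 3 receptors ran from 0.466 to 0.908 in the authors' deposited table.

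None of the 3 genes of the angiopoietin receptor axis was called. Tek, the receptor Tie2, had 8.10 FPKM in MLL4SET-MKO and 8.29 FPKM in WT (log2 ratio -0.03, interval -0.29 to 0.23). Its co-receptor Tie1 had 14.6 FPKM in MLL4SET-MKO and 14.7 FPKM in WT (-0.01, interval -0.26 to 0.25). Ptprb, the phosphatase that quenches Tie2 and VE-cadherin signalling, had 14.3 FPKM in MLL4SET-MKO and 15.9 FPKM in WT (-0.15, interval -0.40 to 0.09). The signs of Tie1 and Tek depended on scaling: Tie1 turned positive with equal FPKM sums, and both did with centring on the median of all rows.

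None of the 4 junction and adhesion genes was called. Cdh5, which encodes VE-cadherin, had 29.1 FPKM in MLL4SET-MKO and 29.7 FPKM in WT (log2 ratio -0.03, interval -0.28 to 0.22). Pecam1, the adhesion protein CD31, had 25.3 FPKM in MLL4SET-MKO and 26.4 FPKM in WT (-0.06, interval -0.31 to 0.19). Cldn5, a tight junction claudin, had 9.84 FPKM in MLL4SET-MKO and 9.89 FPKM in WT (-0.01, interval -0.34 to 0.33). With centring the signs of Cdh5 and Cldn5 turned positive, and that of Cldn5 did so with equal FPKM sums too. The row of Esam, an endothelial adhesion protein, and Vsig2 had 21.7 FPKM in MLL4SET-MKO and 23.99 FPKM in WT (-0.14, interval -0.44 to 0.15).

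The transcription factors held the widest differences of the endothelial genes. The SOXF factors Sox7, Sox17 and Sox18 share roles in vessel growth and arterial identity, and all 3 had lower values in MLL4SET-MKO, also with either rescaling. Sox7 (chromosome 14, 63943706 to 63950732) fell to 3.58 FPKM in MLL4SET-MKO, against 4.95 FPKM in WT (log2 ratio -0.47, interval -0.78 to -0.15, q = 0.0347 in the authors' deposited table). No other annotated gene overlaps Sox7 in GENCODE M21. The call ended at a q threshold of 0.01 and when the authors' statistic was treated as a standard normal value. Benjamini-Hochberg adjustment of the p-values so obtained from the authors' deposited table gave Sox7 0.823, where 3.11% of all rows passed. The other pseudocounts and scalings made no new test, so the authors' q of 0.0347 could not change under them. Sox17 had 3.95 FPKM in MLL4SET-MKO and 5.02 FPKM in WT (-0.34, interval -0.67 to -0.02), with p = 0.0329 and q = 0.17 in the authors' deposited table, so it was not called. Sox18 had 18.4 FPKM in MLL4SET-MKO and 21.6 FPKM in WT (-0.23, interval -0.51 to 0.05).

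The ETS factors among the vessel genes, Erg and Fli1, stood on either side of 0. Erg, which maintains endothelial junctions and identity, had 3.64 FPKM in MLL4SET-MKO and 3.22 FPKM in WT (log2 ratio 0.18, interval -0.13 to 0.49). Fli1, its close relative, had 3.18 FPKM in MLL4SET-MKO and 3.38 FPKM in WT (-0.09, interval -0.41 to 0.24). Ets1 and Ets2, ETS factors of the wider lists, were both lower in MLL4SET-MKO and not called. Their log2 ratios were -0.24 (interval -0.51 to 0.02) and -0.35 (interval -0.61 to -0.10). The interval of Erg overlaps those of Sox17 and Sox18 but not that of Sox7, and the interval of Fli1 overlaps those of every SOXF gene. These overlaps were not examined with the wider intervals of the standard normal treatment. No test was made of the difference between SOXF and ETS genes.

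Among 14 further endothelial genes none was called, 11 were lower and 3 higher. Egfl7, a secreted matrix protein of growing vessels, had 26.4 FPKM in MLL4SET-MKO and 32.6 FPKM in WT (log2 ratio -0.30, interval -0.67 to 0.06). Its locus also holds Agpat2 on the opposite strand, and the labels do not say whether reads were counted by strand. Cdh5 likewise shares its locus with Gm29682, Eng with Fpgs and Esam with Nrgn. Eng, the TGF-beta co-receptor endoglin, had 18.2 FPKM in MLL4SET-MKO and 21.6 FPKM in WT (-0.25, interval -0.52 to 0.01). Emcn, the venous and capillary sialomucin endomucin, had 7.27 FPKM in MLL4SET-MKO and 8.54 FPKM in WT (-0.23, interval -0.54 to 0.08). These 3 differences and that of Ramp2 were the widest of the group, and each interval holds 0.

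Among these endothelial genes, none of vessel tone or clotting was called. Ramp2, the partner of the adrenomedullin receptor, had 26.2 FPKM in MLL4SET-MKO and 30.3 FPKM in WT (log2 ratio -0.21, interval -0.51 to 0.09). In GENCODE M21 it overlaps Vps25 on the same strand. Vwf, the clotting protein von Willebrand factor, had 5.02 FPKM in MLL4SET-MKO and 5.76 FPKM in WT (-0.20, interval -0.46 to 0.06). Nos3, the endothelial nitric oxide synthase, had 4.70 FPKM in MLL4SET-MKO and 5.05 FPKM in WT (-0.10, interval -0.39 to 0.18), at a locus shared with Atg9b. Cav1, which restrains that synthase, had a log2 ratio of -0.15 (interval -0.39 to 0.09).

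Beside Erg, the genes with a higher value were Plvap, Gpihbp1 and Aplnr, and the interval of each holds 0. Plvap, the diaphragm protein of fenestrae and caveolae, had 11.6 FPKM in MLL4SET-MKO and 10.3 FPKM in WT (log2 ratio 0.18, interval -0.11 to 0.47). Gpihbp1, which carries lipoprotein lipase to the capillary lumen, had 30.9 FPKM in MLL4SET-MKO and 30.3 FPKM in WT (0.03, interval -0.28 to 0.33). Aplnr, the apelin receptor, had 4.47 FPKM in MLL4SET-MKO and 4.45 FPKM in WT (0.01, interval -0.30 to 0.32). None of these was called, with q-values from 0.526 to 0.987 in the authors' deposited table.

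The remaining endothelial genes were the guidance receptor Robo4 (log2 ratio -0.13), the matrix protein Mmrn2 (-0.06), the Ras-interacting protein Rasip1 (-0.03) and the C-type lectin Clec14a (-0.03). Rasip1 shares its row with Izumo1, at 11.5 FPKM in MLL4SET-MKO and 11.8 FPKM in WT. The signs of Rasip1 and Clec14a turned positive with centring. Over the 29 endothelial genes, the FPKM summed to 431 in MLL4SET-MKO and 470.2 in WT, a sum in which Cav1 is the largest term.

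**Figure D2:**
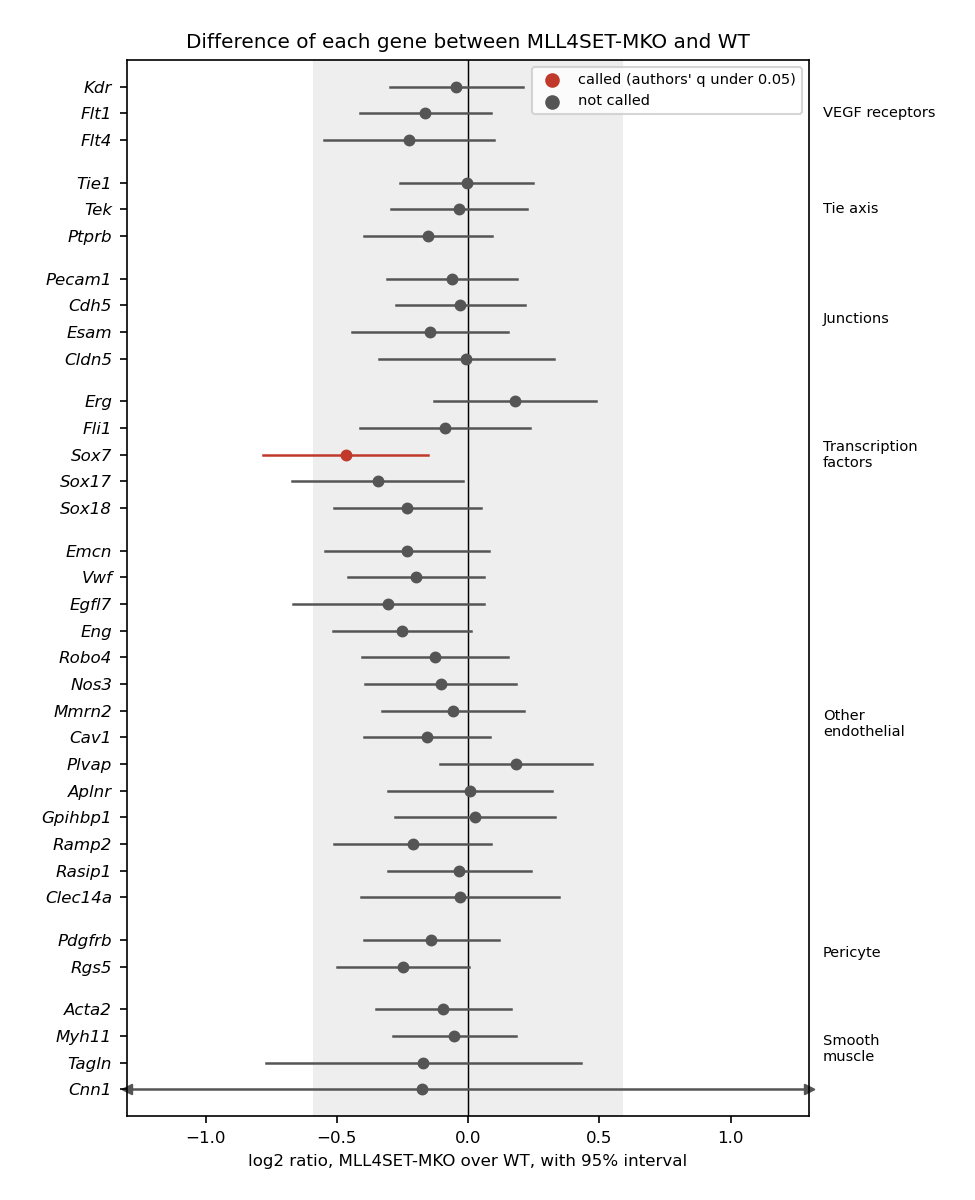
The plot shows the log2 ratio of MLL4SET-MKO over WT for each gene with its 95% interval, ordered by role, on a grey band of 1.5-fold either way. The called gene Sox7 is in red at -0.47, most other intervals lie within the band, and arrows mark the interval of Cnn1, which runs beyond the axis.

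The 6 pericyte and smooth muscle genes all had lower values in MLL4SET-MKO, also with either rescaling, and none was called. Rgs5 had a log2 ratio of -0.25 (interval -0.50 to 0.01, q = 0.235 in the authors' deposited table). Pdgfrb, the receptor by which pericytes are recruited, had 8.23 FPKM in MLL4SET-MKO and 9.07 FPKM in WT (-0.14, interval -0.40 to 0.12). Myh11, the smooth muscle myosin, had 6.97 FPKM in MLL4SET-MKO and 7.23 FPKM in WT (-0.05, interval -0.29 to 0.18).

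The other contractile genes were measured less surely. Acta2, smooth muscle actin, had 22.7 FPKM in MLL4SET-MKO and 24.2 FPKM in WT (log2 ratio -0.09, interval -0.35 to 0.16). Its reads can be confused with those of near-identical actins: the estimate of Acta1 failed in the table, and cardiac Actc1 stood at 1488 FPKM in MLL4SET-MKO and 552 FPKM in WT. Tagln, the actin-binding protein transgelin, had 20.3 FPKM in MLL4SET-MKO and 22.8 FPKM in WT (-0.17, interval -0.77 to 0.43), at a locus shared with Bace1, Pcsk7 and Rnf214. Cnn1, calponin, had 0.799 FPKM in MLL4SET-MKO and 0.901 FPKM in WT, at a locus of 334 kb that holds 15 rows, and its interval of -2.70 to 2.35 runs past 1.5-fold on both sides. The median of log2((MLL4SET-MKO FPKM + 1)/(WT FPKM + 1)) was -0.13 over the 5 of these 6 genes with a mean of at least 1 FPKM and -0.09 over the 29 endothelial genes.

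Several ligands of these receptors were called while the receptors were not, and the difference between ligands and receptors was not tested. Of 13 tested rows of a list of angiogenic ligands, 2 were called higher and 2 lower, 30.8% against the 11.8% of all tested rows. Angpt1, the Tie2 agonist made by cells around the vessel, rose to 7.44 FPKM in MLL4SET-MKO, against 3.29 FPKM in WT (2.26-fold higher, log2 ratio 1.18, interval 0.90 to 1.46, q = 0.000903 in the authors' deposited table). Vegfa, the principal angiogenic factor of muscle fibres, fell to 54.2 FPKM in MLL4SET-MKO, against 78.7 FPKM in WT (-0.54, interval -0.80 to -0.28). Pdgfb, which endothelial cells release to recruit pericytes, fell to 12.95 FPKM in MLL4SET-MKO, against 19.1 FPKM in WT (-0.56, interval -0.82 to -0.30). The row of Vegfb, Dnajc4 and Nudt22 rose to 165 FPKM in MLL4SET-MKO, against 124 FPKM in WT (0.41, interval 0.15 to 0.67), and these genes cannot be told apart in it. With the standard normal treatment of the statistic in the authors' deposited table, Angpt1 still passed (adjusted p = 0.000189) and the other 3 did not (adjusted p from 0.306 to 0.736).

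**Figure D3:**
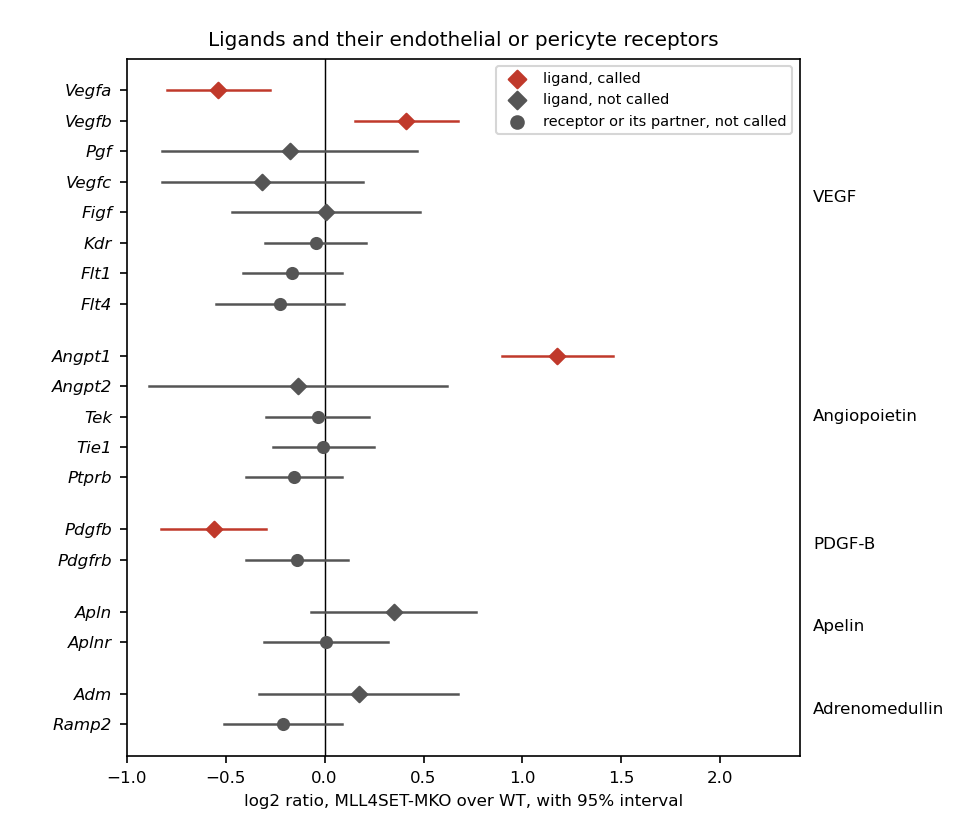
The plot shows the log2 ratio of MLL4SET-MKO over WT with its 95% interval for ligands (diamonds) above their receptors or receptor partners (circles), called genes in red. Angpt1 stands at 1.18 while Tek is at -0.03, and Vegfa and Pdgfb lie below 0 with intervals that do not hold it, unlike those of Kdr, Flt1 and Pdgfrb.

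The ligands of 2 other receptors on the list were not called. Apln, the apelin gene, had 1.79 FPKM in MLL4SET-MKO and 1.40 FPKM in WT (log2 ratio 0.35, interval -0.07 to 0.77). Adm, the adrenomedullin gene, had 2.07 FPKM in MLL4SET-MKO and 1.84 FPKM in WT (0.17, interval -0.33 to 0.68). At these low levels the intervals are wider than those of Aplnr and Ramp2.

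Wider vascular lists held a few calls, to be read against the 11.8% of all tested rows called and the 7.41% called lower. Of 15 vascular receptors and partners, 3 (20%) were called lower and none higher: the chemokine receptor Ackr3 (log2 ratio -0.43), the TNF receptor Tnfrsf1a (-0.41) and the semaphorin receptor Plxnd1 (-0.39). Of 12 tested Notch and arterial or venous genes, only the Notch ligand Jag2 was called (8.33%), at 8.38 FPKM in MLL4SET-MKO and 12.7 FPKM in WT (-0.59, interval -0.85 to -0.34). Of 12 tested hypoxia response genes, Egln1, the oxygen sensor that marks HIF for decay, and Car9, a carbonic anhydrase, were called lower (16.7%), at -0.47 and -1.72, Car9 at 0.175 FPKM in MLL4SET-MKO and 0.576 FPKM in WT. None of these calls passed under the standard normal treatment, where the smallest adjusted value was 0.73 among the receptors, 0.199 among the Notch genes and 0.446 among the hypoxia genes.

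Calls were few among further endothelial markers. Of 32 tested rows, 2 (6.25%) were called higher and none lower, beside 4.44% of all tested rows called higher, and the median on the log2(FPKM + 1) scale was -0.07. Stab2, a scavenger receptor for hyaluronan of sinusoidal and lymphatic endothelium, rose to 7.27 FPKM in MLL4SET-MKO, against 2.37 FPKM in WT (3.07-fold higher, log2 ratio 1.62, interval 1.31 to 1.93). It also passed under the standard normal treatment of the statistic in the authors' deposited table (adjusted p = 7.16e-07). The other call, Palmd, a paralemmin-family gene with a log2 ratio of 0.41, did not (adjusted p = 0.676 from the authors' deposited table). None of 5 tested lymphatic markers was called, with Lyve1 at 3.47 FPKM in MLL4SET-MKO and 4.08 FPKM in WT and Pdpn at 3.31 FPKM in MLL4SET-MKO and 3.05 FPKM in WT. The widest log2 ratio of these markers was that of Prox1, at -0.53 (interval -0.93 to -0.12). Its level was low, at 0.489 FPKM in MLL4SET-MKO and 0.705 FPKM in WT. None of 12 tested genes of endothelial lipid handling was called, with Fabp4 at 263 FPKM in MLL4SET-MKO and 260.5 FPKM in WT and Lpl at 185 FPKM in MLL4SET-MKO and 179 FPKM in WT.

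Of 27 tested rows of further pericyte and smooth muscle markers, 2 were called higher and 5 lower, 25.9% against 11.8% of all tested rows. On the log2(FPKM + 1) scale the widest were Smtn, Casq2, Abcc9 and Mustn1, whose log2 ratios without the added 1 FPKM were -0.78, -0.80, -0.50 and 0.47. Lmod1, the smooth muscle leiomodin, was also called lower, at 1.32 FPKM in MLL4SET-MKO and 2.07 FPKM in WT. Its log2 ratio of -0.65 (interval -0.99 to -0.31) is wider than those of Abcc9 and Mustn1. Mkl2 was called higher, at 9.67 FPKM in MLL4SET-MKO and 7.02 FPKM in WT (log2 ratio 0.46, interval 0.17 to 0.75). Srf was called lower, at 29.4 FPKM in MLL4SET-MKO and 37.2 FPKM in WT (-0.34, interval -0.59 to -0.09). Casq2, a calcium store protein of slow and cardiac muscle, Abcc9, a channel subunit, and Mustn1 are also expressed by muscle fibres. Smtn encodes smoothelin, a cytoskeletal protein of contractile smooth muscle, and stood at 13.7 FPKM in MLL4SET-MKO and 23.4 FPKM in WT (interval -1.03 to -0.53). Of the 7 calls, Smtn (adjusted p = 0.0187) and Casq2 (adjusted p = 0.0325) also passed under the standard normal treatment of the statistic in the authors' deposited table.

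Markers of other cell types stood as follows beside these values. All 9 macrophage markers with a mean of at least 1 FPKM were higher in MLL4SET-MKO, 5 of 10 tested (50%, against 11.8% of all tested rows) were called higher, and the 10 summed to 158 FPKM in MLL4SET-MKO and 99.6 FPKM in WT. The highest was Lyz2, at 77.3 FPKM in MLL4SET-MKO and 43.2 FPKM in WT, and of the 5 calls it alone passed under the standard normal treatment (adjusted p = 0.0184 from the authors' deposited table). Fibroblast markers summed to 896 FPKM in MLL4SET-MKO and 853 FPKM in WT. Of these 10 markers 8 were higher and 2 lower in MLL4SET-MKO, and none was called. Dcn had 252 FPKM in MLL4SET-MKO and 259.9 FPKM in WT, and Col1a2 had 239.9 FPKM in MLL4SET-MKO and 226.8 FPKM in WT. No call was made among 6 Schwann cell, 6 adipocyte and 4 tested erythroid rows. Of 6 satellite cell markers 3 were called lower (50%, against 7.41% of all tested rows called lower). They were Calcr, Myf5 and Chodl, the first 2 under 1.5 FPKM in both groups. None of the 3 passed under the standard normal treatment (smallest adjusted p = 0.176 from the authors' deposited table). Cdh15, the highest of the satellite cell markers, had 7.63 FPKM in both groups. The lymphocyte and neutrophil rows were not tested and none exceeded 0.148 FPKM in MLL4SET-MKO or 0.0944 FPKM in WT. The part of other cell types in the vessel gene values was not tested.

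**Figure D4:**
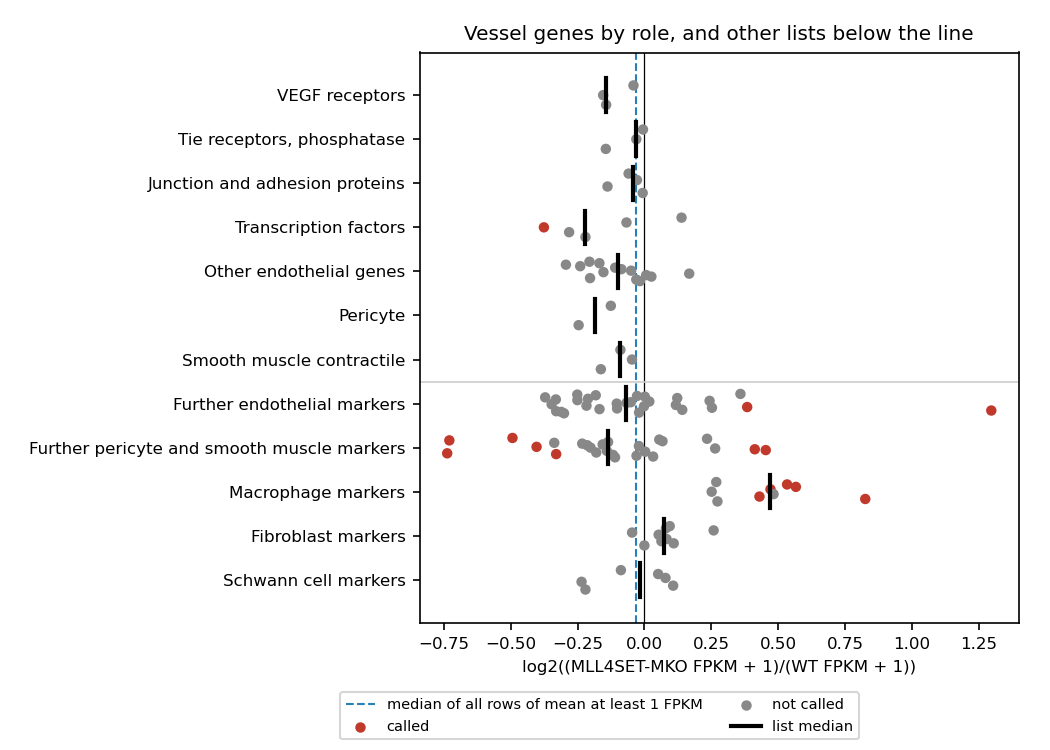
Each point is a gene of mean 1 FPKM or more, plotted at log2((MLL4SET-MKO FPKM + 1)/(WT FPKM + 1)), with called genes in red, black bars for list medians and a dashed line for the median of all such rows. The 7 groups of vessel genes above the grey line have medians between -0.22 and -0.03, and the macrophage markers below it have a median of 0.47.

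The vessel genes lay on 17 chromosomes, and 8 shared a locus or a row with another gene. Their median exonic length was 4048 bases, beside 4513 bases over 10269 rows of mean 1 FPKM or more with a length in GENCODE M21. The Spearman correlation of the log2 ratio with exonic length was -0.13 across the 35 genes and -0.18 across those rows, given as a description of genes that share the same libraries.

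Promoter sequence was examined for the motif AGGAAG, which holds the GGAA core bound by ETS factors such as Erg and Fli1. RefSeq promoters (GRCm38.p6, 250 bases before to 50 after a gene's start) were examined for 17 of the 35 genes, in 22 windows. Any window of Pdgfrb was left out of these 22, so its promoter was not examined. The motif stood on either strand in 10 of the 22 windows (45.5%) and in 35.4% of all 32851 windows. It was held by 9 of the 14 endothelial genes with an examined window and by none of the 3 mural genes with one, Acta2, Cnn1 and Rgs5. These are counts of genes, and a gene with several windows has more room for a match. The share over all genes was not computed, and the difference between endothelial and mural genes was not tested. Egfl7 has 3 windows, with 3, 2 and 0 matches, and Tie1 has 1 window, with 2 matches. The Egfl7 window with the most matches and the Tie1 window are shown because Egfl7 has the lowest log2 ratio of the 9 genes (-0.30) and Tie1 one close to 0 (-0.01). Capitals mark AGGAAG or its reverse complement CTTCCT, each window is written along its gene's strand, and a match is not a measured binding site.
Egfl7, chr2:26580833-26581132, plus strand: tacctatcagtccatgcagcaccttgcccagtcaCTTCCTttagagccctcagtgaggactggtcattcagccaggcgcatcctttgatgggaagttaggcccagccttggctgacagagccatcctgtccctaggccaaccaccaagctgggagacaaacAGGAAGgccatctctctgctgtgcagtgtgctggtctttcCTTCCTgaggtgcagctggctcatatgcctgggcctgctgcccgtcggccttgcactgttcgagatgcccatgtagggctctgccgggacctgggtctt
Tie1, chr4:118489800-118490099, minus strand: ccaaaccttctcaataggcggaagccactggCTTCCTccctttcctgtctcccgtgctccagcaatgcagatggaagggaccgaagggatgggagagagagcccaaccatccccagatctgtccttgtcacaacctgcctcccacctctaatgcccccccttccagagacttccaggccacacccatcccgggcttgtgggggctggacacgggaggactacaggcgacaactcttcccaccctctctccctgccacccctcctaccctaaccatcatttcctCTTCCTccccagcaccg
Neither Egfl7 nor Tie1 was called.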

How the data were processed

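RNA of 6 gastrocnemius libraries, 3 MLL4SET-MKO and 3 WT, was quantified by the authors. Tools listed in the submitters' processing notes are Cufflinks 2.2.1, TopHat2 2.0.14, FastQC 0.11.3 and bcl2fastq, on the build mm10 (GRCm38). Neither the annotation nor the way libraries were scaled is stated there. The layout of the table is that of Cuffdiff, per the file headers. The deposited table gives, per the file headers, a group FPKM, a test statistic (used as a score), a p-value and a q-value for each row. Its rows comprise 13347 tested, 12569 not tested and 11 with a failed estimate, and 1 further line held no values. The deposited log2 column was not used, because part of it had become error text.

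Ratios were computed from the FPKM with Python 3.11.15, numpy 2.4.6, pandas 2.3.3 and scipy 1.17.1. A pseudocount of 1 FPKM was added for list medians only, which understates the change of low genes. The deviate of the authors' p was 1.73 times their test statistic (median of 11579 rows), and standard errors were taken as the log2 ratio over that multiple. They rest on the authors' model, not on single mice. The calculation was tested on data simulated with the same formula, which checks the arithmetic and not the fit of the authors' model. Coordinates are those of the table on mm10, counted from 1.

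The genes and lists were chosen with earlier results of these data known. Named from each other list were up to 4 called genes of largest change on the log2(FPKM + 1) scale or, with none called, the 2 highest. Apln, Adm, Actc1, Des, Lmod1, Ets1, Ets2, Mkl2, Srf, Prox1 and Cdh15 were named after their values were seen. Alternatives were 2 other pseudocounts, 2 other filters, 2 other scalings, a q of 0.01, the statistic treated as a standard normal value, and leaving out shared loci.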

Additional observations from a re-analysis of the deposited data

How the results depend on the processing

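The single call among the 35 genes, Sox7, gave way to 0 calls with rows of mean 5 FPKM or more, with a q under 0.01 and with the statistic treated as a standard normal value; the first follows from the level of Sox7, which is under 5 FPKM. By the authors' unadjusted p, 2 of the 35 passed 0.05. The count over all rows, 1581, was 922, 1048 and 415 under the same 3 alternatives. The number of genes higher in MLL4SET-MKO, 4, was 2 of the genes at 5 FPKM or more and 9 with centring on the median of all rows, both on the log2(FPKM + 1) scale. The log2 ratios without the added 1 FPKM that changed sign were all within 0.05 of 0: with equal FPKM sums Tie1 (0.0143) and Cldn5 (0.0129), and with centring on their own median over all rows Tie1 (0.0313), Cldn5 (0.0298), Cdh5 (0.0080), Clec14a (0.0075), Rasip1 (0.0039) and Tek (0.0029). The other 29 genes kept their sign under both scalings. The median of the genes, -0.10, lay between -0.12 and -0.07 over 7 alternatives. No paired analysis was possible because the table holds group values only, and leaving out single replicates was not run for the same reason. Depth is unknown, so counting error cannot be given, and the intervals rest on the authors' model of the spread. Among the genes of other lists named by rule and Kmt2d, 19 calls were lost under the standard normal treatment and 9 with a q under 0.01.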
